A study of Mus musculus with 8 samples.

Results

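The enzymes that carry glucose carbon from the cell surface to the end of the citrate cycle were followed in the left ventricle of 6-month-old mice. The 44 members were taken by gene symbol from the deposited table, and all 44 were found there, with 187 of its 33027 transcript rows and 44 of its 14578 genes. They were set apart by step: 23 genes of glucose uptake, glycolysis, lactate formation and glycogen turnover, 9 genes of pyruvate entry into the mitochondrion, and 12 genes of the citrate cycle. RNA sequencing of 8 ventricular libraries compared 3 genotypes, all in a C57 background: 2 wild-type libraries (WT), 3 libraries from mdx mice, and 3 from mdx sln+/- mice. mdx mice carry a mutation of Dmd, the gene of dystrophin, and serve as a model of dystrophic cardiomyopathy. mdx sln+/- mice carry the same mutation and are heterozygous at Sln, which encodes sarcolipin, a small inhibitor of the sarcoplasmic reticulum calcium pump; Sln itself was not analysed here. The mdx sln+/- libraries are named Treat2 and titled TRT2, and the labels do not say what these words stand for. They name no vehicle, treating agent or sex. The labels also do not say whether each library came from its own mouse. The p-values therefore measure the spread between libraries, which may be technical.

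Glycolysis splits glucose into pyruvate in the cytosol, with hexokinase, phosphofructokinase and pyruvate kinase as its committed steps. Pyruvate is reduced to lactate or enters the mitochondrion, where the pyruvate dehydrogenase complex turns it into acetyl-CoA; this complex is switched off by kinases (Pdk genes) and on by phosphatases (Pdp genes). The citrate cycle oxidises acetyl-CoA whatever its source, and the adult heart feeds it mainly from fatty acids, with glucose and lactate as the other fuels.

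Values are log2(abundance + 1), where abundance is the deposited normalised value summed over a gene's transcripts. The file does not state whether abundance was divided by transcript length, so levels are compared between libraries and not between genes. Differences were tested with limma over all 13783 genes that reached an abundance of at least 1 in at least 2 libraries, and a gene is said to rise or fall where the Benjamini-Hochberg adjusted p was under 0.05. All 44 members passed that filter. Dmd, the check of the genotype, stood at 6.60 and 6.98 in WT, between 4.22 and 4.32 in mdx and between 4.09 and 4.25 in mdx sln+/-. Summed abundance ranged from 780262 (mdx 1) to 924253 (mdx 3), and read depth is unknown. The libraries' names come in 2 styles, with an index (mdx 1, mdx 2, mdx sln+/- 1, mdx sln+/- 2) and without (both WT, mdx 3, mdx sln+/- 3), and WT 2 and mdx sln+/- 3 had the lowest summed abundance of 4 Y-linked genes (3.34 and 5.25, against 29.07 to 194.5 in the others). Markers of cardiac muscle were abundant in every library, and none of 7 lymphocyte markers had a row in the file.

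Against WT, 5 of the 44 members (11.4%) passed the test in mdx, beside 15.1% of all genes. Hexokinase 1 and enolase 1 rose (2 members, beside 8.15% of all genes), and hexokinase 2, the phosphofructokinase-2 gene Pfkfb1 and glycogen synthase 1 fell (3 members, beside 6.94%). All 5 belong to the 23 genes of glycolysis and glycogen; none of the 9 genes of pyruvate entry and none of the 12 of the citrate cycle passed. In mdx sln+/- ventricle, again 5 of 44 passed, beside 15.9% of all genes: Hk1, Eno1 and the pyruvate dehydrogenase phosphatase Pdp1 rose (3 members, beside 9.41%), and Pfkfb1 and Gys1 fell (2 members, beside 6.5%). With median-ratio scaling Hk1 lost its call in mdx sln+/- (0.27, 0.0972) and Hk2 gained one (-0.38, 0.0348), so that 2 members rose and 3 fell, and over all genes 1297 higher and 896 lower became 931 and 1137. Upper-quartile scaling gave the same member counts, with 1000 higher and 1079 lower over all genes. The shares called over all 44 members were near or under those of all genes. Among the 23 glycolysis genes they were 21.7% in mdx (beside 15.1% of all genes) and 17.4% in mdx sln+/- (beside 15.9%). The median log2 fold change over the members was 0.02 in mdx, that of all genes (0.02), and 0.105 in mdx sln+/-, beside 0.053 for all genes. Between mdx sln+/- and mdx no member passed, and neither did any other gene by limma, with percent called at 0; at an unadjusted p under 0.05 stood 1186 genes, Slc2a1 alone among the members. Both comparisons with WT use the same 2 WT libraries, so their agreement is no independent support.

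**Figure D1:**
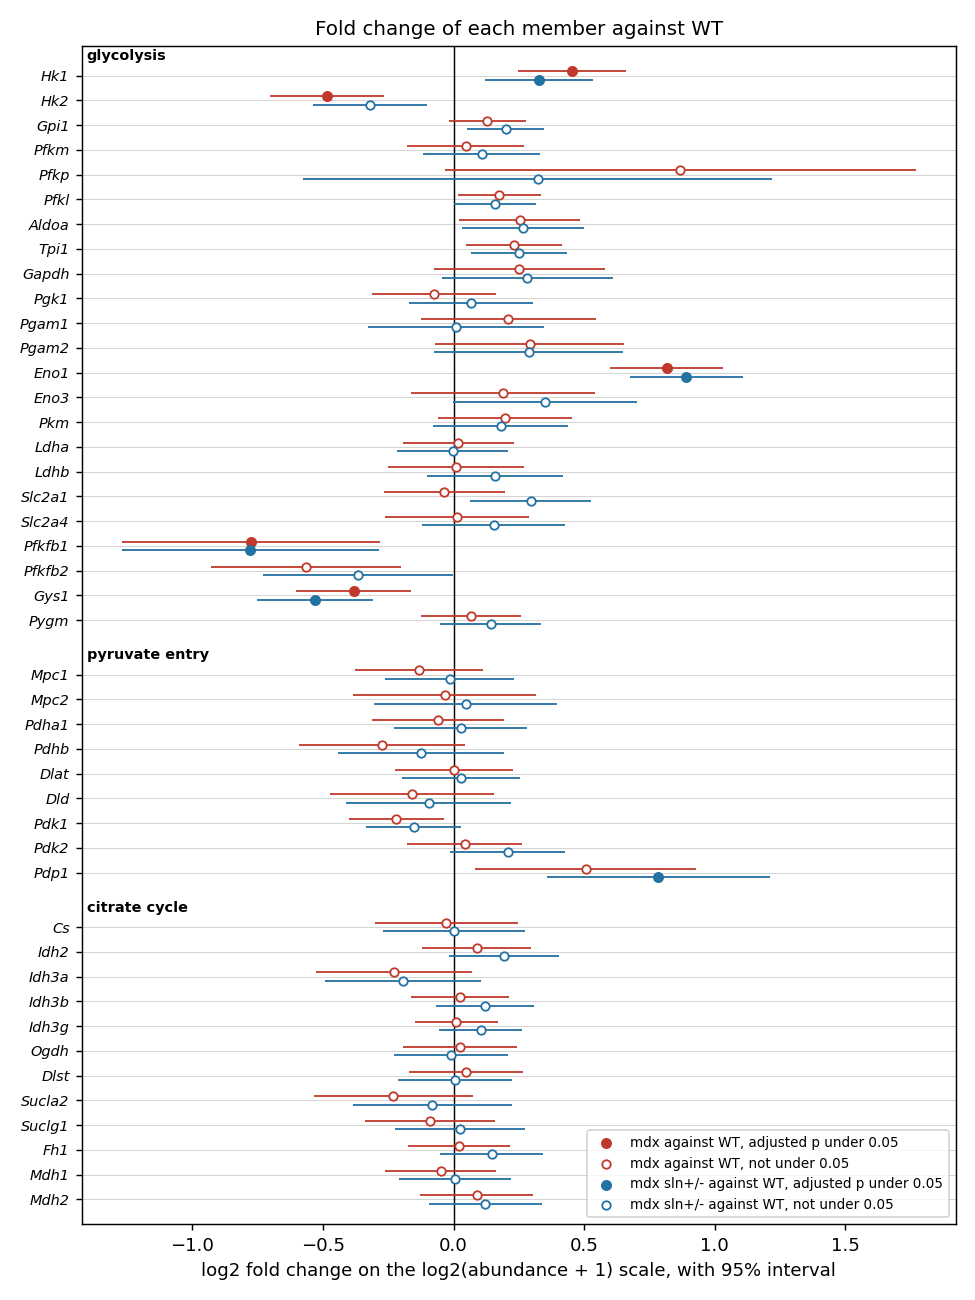
Log2 fold change of each of the 44 members against WT, in mdx (red) and mdx sln+/- (blue), on the log2(abundance + 1) scale, with 95% intervals from the limma fit; filled points have an adjusted p under 0.05. The filled points lie in the glycolysis block, apart from Pdp1, and the 12 citrate cycle genes lie between -0.23 and 0.19.

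At the cell surface, Slc2a4 encodes the insulin-responsive glucose carrier GLUT4 of muscle. Its level was 8.60 and 8.54 in WT, 8.39, 8.66 and 8.71 in mdx 1 to 3, and 8.69, 8.65 and 8.83 in mdx sln+/- 1 to 3. The mdx libraries lay on both sides of WT, and the difference was 0.01 ± 0.12 (SE; limma adjusted p = 0.952). Slc2a1, the basal carrier GLUT1, was at 3.63 and 3.82 in WT, 3.67, 3.63 and 3.78 in mdx, and 4.03, 4.08 and 3.95 in mdx sln+/-. All 3 mdx sln+/- libraries lay above the other 5, without passing the test against WT (0.30 ± 0.10, limma adjusted p = 0.0832) or against mdx (0.33 ± 0.08, 0.578).

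Hexokinase traps glucose in the cell by phosphorylating it. Hk1 is the form found in most tissues and Hk2 the insulin-regulated form of muscle and heart. Hk1 stood at 7.07 and 7.15 in WT, at 7.68, 7.57 and 7.43 in mdx, and at 7.44, 7.42 and 7.45 in mdx sln+/-. Every mdx and mdx sln+/- library was above both WT libraries, and Hk1 rose by 0.45 ± 0.09 in mdx (1.37-fold, adjusted p = 0.0187) and by 0.33 ± 0.09 in mdx sln+/- (1.26-fold, 0.046). Hk2 took the opposite course: it stood at 7.89 and 8.01 in WT, at 7.42, 7.45 and 7.53 in mdx, and at 7.51, 7.65 and 7.74 in mdx sln+/-. Again the groups did not overlap with WT. Hk2 fell by 0.48 ± 0.09 in mdx (1.4-fold, adjusted p = 0.0179), while the value of -0.32 ± 0.09 in mdx sln+/- missed the threshold (0.0565).

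Within each library, the log2 difference of Hk1 minus Hk2 was -0.82 and -0.86 in WT, 0.26, 0.13 and -0.10 in mdx, and -0.07, -0.23 and -0.29 in mdx sln+/-. This measure is free of library scaling, and its mean moved by 0.79 between WT and the 6 other libraries. An exact two-sided permutation test gave p = 0.0714, the smallest that 2 against 6 libraries allow, and 0.214 adjusted over the 9 isozyme pairs compared. Eno1 minus Eno3 (shift 0.58) and Pdk1 minus Pdk2 (shift -0.31) also did not overlap, with the same p. The Eno1 minus Eno3 shift was 0.87 in r1 columns and 0.27 in r2 columns (adjusted p = 0.643, exact permutation test), and that of Pdk1 minus Pdk2 was -0.15 without WT 2 and -0.48 without WT 1. The other 6 pairs, Slc2a1 and Slc2a4, Pfkp and Pfkm, Pfkl and Pfkm, Pgam1 and Pgam2, Ldha and Ldhb, and Pfkfb1 and Pfkfb2, overlapped.

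The rise of Hk1 lay in 2 of its 5 transcripts in the file. Hk1-201 had abundances of 95.2 and 96.0 in WT, 151.5, 144.2 and 129.4 in mdx, and 131.9, 129.2 and 134.2 in mdx sln+/- (mdx against WT 0.56 ± 0.09, adjusted p = 0.0157 over 29021 transcripts). Hk1-203 had 6.08 and 6.89 in WT and 8.28 to 10.2 in the other 6 libraries (0.52 ± 0.12, 0.0403). The protein-coding transcript of Hk2, Hk2-201, fell with its gene (-0.52 ± 0.10, 0.0229). The short non-coding Hk2-202 went the other way, from 2.39 and 1.66 in WT to 4.77, 4.71 and 7.21 in mdx and 7.19, 10.24 and 9.60 in mdx sln+/- (1.11 ± 0.23, 0.0323). Isoforms share reads, so how abundance was divided among them is uncertain.

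Hk1 lies on chromosome 10 (62268855 to 62379908, minus strand) and Hk2 on chromosome 6 (82725025 to 82774454, minus strand). The 250 bases before the start of Hk2, chr6:82774455-82774704 (RefSeq, GRCm38.p6), are shown because this start is also the first base of Hk2-201, the transcript that fell; capitals mark ACGTG or CCAAT on either strand.
Hk2 promoter: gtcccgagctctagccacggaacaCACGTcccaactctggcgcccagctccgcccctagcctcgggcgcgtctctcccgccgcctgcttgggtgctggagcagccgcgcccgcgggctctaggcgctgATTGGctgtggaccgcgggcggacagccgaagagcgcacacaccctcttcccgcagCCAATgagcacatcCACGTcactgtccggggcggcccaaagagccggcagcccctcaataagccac
The window holds ACGTG 2 times and CCAAT 2 times. ACGTG is the core of the hypoxia response element and part of the E-box CACGTG, and CCAAT is the site of general promoter factors. ACGTG was in 23 of the 64 windows of the 41 members with an entry (35.9%) and in 16.6% of all 32851 windows; CACGTG, which contains ACGTG, was in 10.9% and 6.0%, and CCAAT in 45.3% and 33.8%. AAGGTCA, the binding site of oestrogen-related receptors, was in 3.1% of the members' windows and 4.1% of all. These are counts of letters on both strands and not of bound sites. The most upstream RefSeq start of Hk1 is likewise the first base of Hk1-203, and the windows of Hk1 hold none of these motifs. Of the members called in mdx, Hk1, Eno1, Pfkfb1 and Gys1 had no ACGTG in any window.

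Phosphofructokinase is the main control point of glycolysis. Its muscle subunit Pfkm stood at 9.58 and 9.36 in WT, 9.46, 9.51 and 9.58 in mdx, and 9.53, 9.58 and 9.63 in mdx sln+/-. The 3 groups overlapped, and the difference between mdx and WT was 0.05 ± 0.10 (adjusted p = 0.775). The platelet subunit Pfkp was at 4.89 in WT 1 and at 6.29 in WT 2, at 6.27, 6.70 and 6.41 in mdx, and at 5.99, 5.69 and 6.07 in mdx sln+/-. WT 1 was below all the others and WT 2 lay among the mdx libraries, and the value of 0.87 ± 0.38 in mdx did not pass (0.167). The liver subunit Pfkl did not overlap with WT in either genotype but missed the threshold (0.18 ± 0.07 in mdx, 0.122).

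Pfkfb1 and Pfkfb2 encode bifunctional enzymes that make and remove fructose 2,6-bisphosphate, the activator of phosphofructokinase; Pfkfb2 is the form typical of heart and Pfkfb1 that of liver and skeletal muscle. Pfkfb1 (chromosome X, 150589921 to 150643878) stood at 3.68 and 3.47 in WT, 2.51, 3.01 and 2.87 in mdx, and 3.09, 2.56 and 2.72 in mdx sln+/-. It fell by 0.78 ± 0.21 in mdx (1.71-fold, adjusted p = 0.0487) and by 0.78 ± 0.21 in mdx sln+/- (1.72-fold, 0.0467), with no overlap. Pfkfb2 just missed the threshold in mdx: its level was 5.40 and 5.50 in WT, 4.79, 4.73 and 5.14 in mdx, and 4.90, 5.24 and 5.11 in mdx sln+/-, a difference of -0.56 ± 0.16 (0.0506) and -0.36 ± 0.16 (0.148).

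Outside hexokinase and phosphofructokinase, the trunk genes Gpi1, Aldoa, Tpi1, Gapdh, Pgam1, Pgam2, Eno3 and Pkm had positive log2 fold changes in mdx. They lay between 0.13 (Gpi1) and 0.29 (Pgam2), and none passed. Pgk1, the phosphoglycerate kinase between Gapdh and the mutases, was at 7.44 and 7.33 in WT, 7.15, 7.38 and 7.41 in mdx, and 7.46, 7.38 and 7.51 in mdx sln+/-. The groups overlapped, and its value in mdx was -0.07 ± 0.10 (limma adjusted p = 0.655). The near-identical copies Gm5537 and Pgk1-rs7 held 54.6% to 60.8% of the abundance of Pgk1 and copies together, with the highest share in mdx 1. How reads were divided among them is uncertain. In all, 17 of the 23 glycolysis members were above 0 in mdx and 18 of 23 in mdx sln+/-, with medians of 0.13 and 0.16; over all genes, 7314 of 13783 were above 0 in mdx, with a median of 0.02. WT 2 was the lowest of the 8 libraries in 11 of the 23 genes (47.8%, beside 27.8% of all genes), and its part in these positive values was not tested. Gapdh, the dehydrogenase often used as a reference gene, was at 5.68 and 5.20 in WT, 5.75, 5.65 and 5.67 in mdx, and 5.75, 5.76 and 5.65 in mdx sln+/-. WT 1 lay among the other genotypes and WT 2 below them (0.25 ± 0.14, adjusted p = 0.255), and the value rested on WT: without WT 1 Gapdh passed (0.49, 0.0286), and without WT 2 its difference was 0.012 (0.948). Its rows are uncertain: they hold 3 retained-intron transcripts and no protein-coding one, and the annotation has 179 near-identical copies of the gene.

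Eno1, one of the enolases, which make phosphoenolpyruvate, had the lowest adjusted p of all members in both comparisons. Eno1 is the form of most cell types and Eno3 that of mature muscle. Eno1 (chromosome 4, 150236952 to 150248879) was at 4.73 and 4.65 in WT, 5.63, 5.52 and 5.37 in mdx, and 5.62, 5.57 and 5.56 in mdx sln+/-. The 6 libraries carrying the Dmd mutation lay above both WT libraries by more than the spread within any group. It rose by 0.82 ± 0.09 in mdx (1.76-fold, limma adjusted p = 0.00465) and by 0.89 ± 0.09 in mdx sln+/- (1.86-fold, 0.00351). The size depended on the settings: over all those run, it ranged from 0.37 to 1.16 in mdx and from 0.45 to 1.27 in mdx sln+/-. Leaving out any library in turn kept both calls, with adjusted p up to 0.0324 in mdx against WT. Eno3 was at 9.69 and 9.43 in WT, 9.51, 9.85 and 9.88 in mdx, and 9.89, 9.80 and 10.03 in mdx sln+/-, and did not pass (0.19 ± 0.15, 0.421).

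The change in Eno1 was concentrated in transcript Eno1-202, which has the most upstream start. Its abundance was 6.49 and 5.73 in WT, 26.6, 23.1 and 18.9 in mdx, and 25.1, 24.6 and 25.6 in mdx sln+/-. It rose by 1.74 ± 0.15 in mdx and by 1.88 ± 0.15 in mdx sln+/- (adjusted p = 0.00239 and 0.00156 over transcripts). Eno1-205 rose less (0.49 ± 0.11, 0.0386), from 6.43 and 6.50 in WT to between 9.09 and 10.3 in mdx. Eno1-201, which starts further downstream, stayed between 5.56 and 7.42 in all 8 libraries (-0.18 ± 0.14, 0.442).

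Eno1 has near-identical copies that can take its reads: 7 in the annotation, of which Eno1b and Gm4735 were in the file. The copies held 77.9 and 73.4 of abundance in WT, 85.7, 85.3 and 84.7 in mdx, and 90.7, 89.6 and 90.8 in mdx sln+/-, beside 25.6 and 24.2, 48.6, 44.9 and 40.5, and 48.3, 46.4 and 46.2 for Eno1 itself. With the copies added to Eno1, its log2 fold change was 0.37 in mdx (0.0159) and 0.45 in mdx sln+/- (0.00853), less than the values for Eno1 alone by over 1.5 times.

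**Figure D2:**
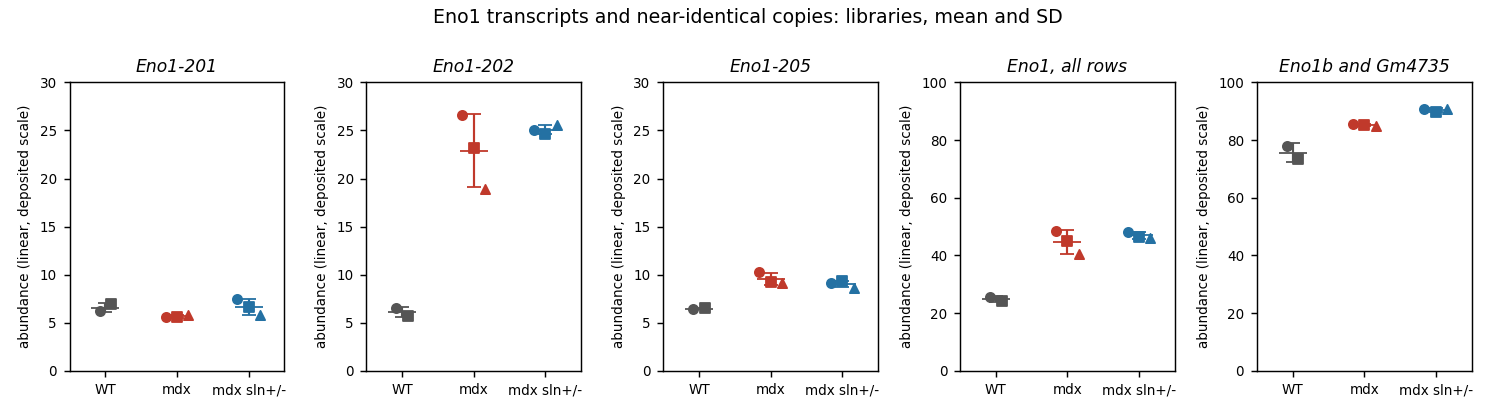
Abundance (linear, deposited scale) of 3 protein-coding Eno1 transcripts, of all Eno1 rows, and of the copies Eno1b and Gm4735 together, in each library (circle, square and triangle are replicates 1, 2 and 3), with mean and SD by genotype. Eno1-202 lies at 5.73 and 6.49 in WT and between 18.9 and 26.6 elsewhere, while Eno1-201 is level.

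The 250 bases before the most upstream RefSeq start of Eno1 (chr4:150236458-150236707, plus strand, GRCm38.p6) are shown because they lie upstream of Eno1-202; capitals mark AAGGTCA.
Eno1 promoter: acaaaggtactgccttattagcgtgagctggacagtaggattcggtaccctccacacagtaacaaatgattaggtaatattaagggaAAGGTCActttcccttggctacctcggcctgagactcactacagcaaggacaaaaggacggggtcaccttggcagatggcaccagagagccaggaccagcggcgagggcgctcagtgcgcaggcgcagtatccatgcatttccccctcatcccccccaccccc
That start lies 244 bases before the first base of Eno1-202 in the annotation, and the window of the next RefSeq start contains that base. The window holds AAGGTCA 1 time, and no ACGTG or CCAAT; the windows of the next 2 RefSeq starts of Eno1 hold CCAAT 2 times each.

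Pyruvate kinase ends glycolysis. Pkm stood at 9.68 and 9.34 in WT, 9.74, 9.70 and 9.68 in mdx, and 9.66, 9.70 and 9.72 in mdx sln+/-. WT 2 was below the other libraries, which lay between 9.66 and 9.74, and the difference of 0.20 ± 0.11 did not pass (adjusted p = 0.26). It was 0.031 without WT 2 and 0.36 without WT 1. Pkm makes an adult muscle form (M1) and a form of growing cells (M2) by using one or the other of a pair of exons of 167 bases, which are shown because they separate both forms in these data (plus strand, GRCm38, GENCODE M21). Pkm-202 holds the upstream exon, chr9:59675029-59675195, and Pkm-201 the downstream one, chr9:59675568-59675734; capitals mark the 64 positions at which both differ.
Pkm-202 exon: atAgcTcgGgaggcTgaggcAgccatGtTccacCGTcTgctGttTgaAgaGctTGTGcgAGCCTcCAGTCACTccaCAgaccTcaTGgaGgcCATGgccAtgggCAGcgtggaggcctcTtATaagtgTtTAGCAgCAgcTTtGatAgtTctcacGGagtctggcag
Pkm-201 exon: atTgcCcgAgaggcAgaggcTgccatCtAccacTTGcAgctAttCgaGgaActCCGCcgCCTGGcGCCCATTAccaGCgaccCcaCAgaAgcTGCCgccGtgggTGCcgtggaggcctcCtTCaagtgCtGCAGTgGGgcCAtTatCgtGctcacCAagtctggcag
Pkm-202 (M1) made up 65.5% and 67.8% of the gene's summed abundance in WT, 65.2%, 67.0% and 67.8% in mdx, and 67.6%, 67.3% and 67.9% in mdx sln+/-. Pkm-201 (M2) made up 30.6% to 33.1% in all 8 libraries. The shares of the genotypes overlapped, and neither transcript passed the test (Pkm-202 0.20 ± 0.10, 0.265; Pkm-201 0.19 ± 0.13, 0.387). The exons are alike at 61.7% of positions, and 4 copies of Pkm in the file held 16.6% to 17.8% of the abundance of gene and copies together.

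Lactate dehydrogenase turns pyruvate into lactate and back. Ldha, the subunit favouring lactate formation, was at 8.61 and 8.79 in WT, 8.65, 8.78 and 8.72 in mdx, and 8.69, 8.63 and 8.76 in mdx sln+/-. Every mutant library lay between the WT libraries, and the difference of 0.02 ± 0.09 (95% interval -0.19 to 0.23) did not pass (adjusted p = 0.913). Ldhb, the heart subunit, gave 0.01 ± 0.11 (0.967).

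Glycogen is the store into which glucose 6-phosphate can be diverted. Gys1, the glycogen synthase of muscle (chromosome 7, 45434844 to 45456619), was at 7.29 in both WT libraries, at 6.82, 7.02 and 6.88 in mdx, and at 6.77, 6.64 and 6.86 in mdx sln+/-. It fell by 0.38 ± 0.09 in mdx (1.3-fold, adjusted p = 0.0367) and by 0.53 ± 0.09 in mdx sln+/- (1.44-fold, 0.0139), with no overlap with WT. Its main protein-coding transcript Gys1-201 went from 149.0 and 148.2 in WT to 107.5, 124.4 and 112.0 in mdx (-0.37 ± 0.10, 0.0656) and to 104.5, 95.4 and 112.1 in mdx sln+/- (-0.51 ± 0.10, 0.0249). Pygm, the muscle phosphorylase that breaks glycogen down, lay between 9.61 and 9.85 in all 8 libraries and did not pass (0.07 ± 0.08, 0.615). Exons of a gene on the other strand overlap Hk1, Gys1 and Pfkfb1 (Hk1os, Ruvbl2 and Apex2), and whether counting used strand is not given in the sources used here.

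**Figure D3:**
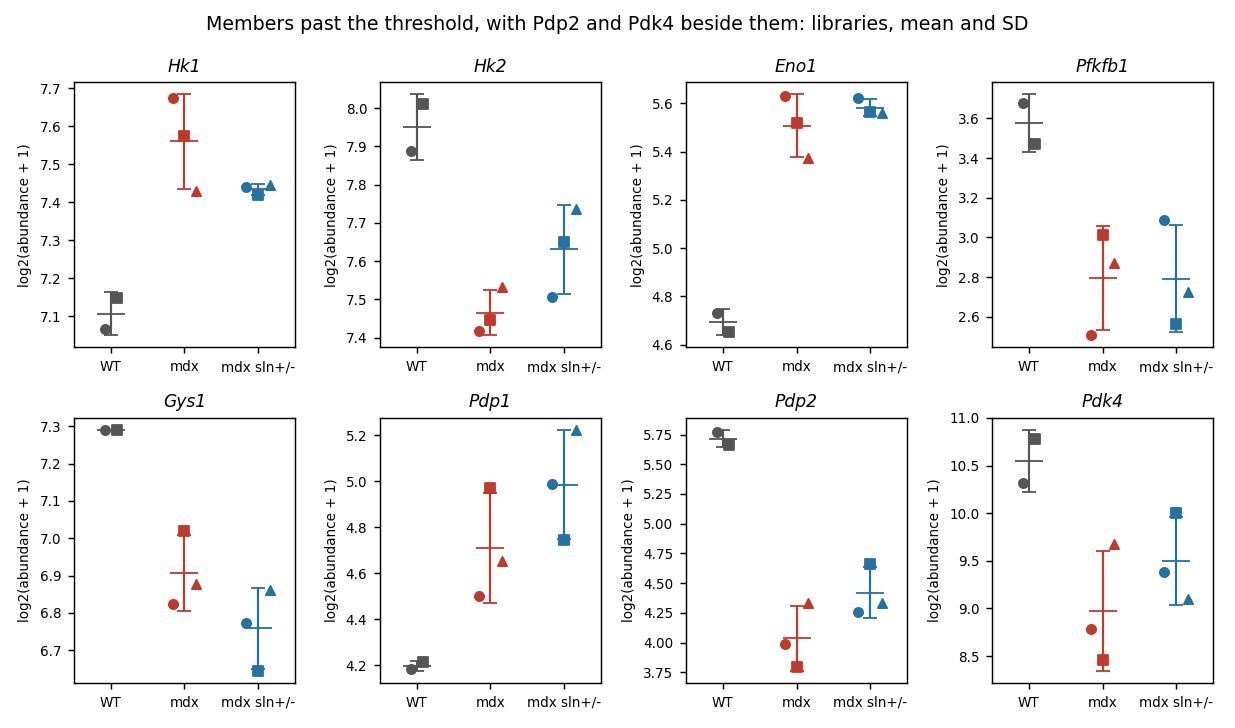
Level, log2(abundance + 1), of the 6 members past the threshold in either comparison with WT, and of Pdp2 and Pdk4, in each library (circle, square and triangle are replicates 1, 2 and 3), with mean and SD by genotype; each panel has its own axis, which does not start at 0. In each panel the WT libraries lie apart from all 6 others.

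Pyruvate crosses the inner mitochondrial membrane through the carrier made by Mpc1 and Mpc2, and the pyruvate dehydrogenase complex, with subunits from Pdha1, Pdhb, Dlat and Dld, converts it. Pdha1, the catalytic subunit that the kinases phosphorylate, was at 10.10 and 10.01 in WT, 9.83, 10.04 and 10.11 in mdx, and 10.07, 10.03 and 10.14 in mdx sln+/-. The libraries overlapped apart from mdx 1, the lowest, and the difference was -0.06 ± 0.11 (adjusted p = 0.742). The other subunits and carriers lay between -0.27 (Pdhb) and 0.00 (Dlat) in mdx and none passed.

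Among the regulators of the complex, the kinase gene Pdk2 was at 8.48 and 8.22 in WT, 8.34, 8.39 and 8.45 in mdx, and 8.56, 8.56 and 8.55 in mdx sln+/-. The mdx libraries lay between the WT libraries and the mdx sln+/- libraries above both, and neither difference passed (0.04 ± 0.09, adjusted p = 0.788; 0.21 ± 0.09, 0.167). Pdk1 was lower than WT in all 6 mutant libraries without passing (-0.22 ± 0.08 in mdx, 0.0996), while its non-coding transcript Pdk1-208 fell from 25.9 and 27.1 in WT to 14.8, 16.4 and 12.3 in mdx (-0.84 ± 0.15, 0.0202). Pdp1, the calcium-stimulated phosphatase that reactivates the complex (chromosome 4, 11958184 to 11966452), was at 4.18 and 4.21 in WT, 4.50, 4.97 and 4.66 in mdx, and 4.99, 4.75 and 5.22 in mdx sln+/-. All 6 mutant libraries lay above WT. Pdp1 rose by 0.78 ± 0.18 in mdx sln+/- (1.72-fold, adjusted p = 0.0305), and its value of 0.51 ± 0.18 in mdx did not pass (0.102); the difference between both was 0.28 with a 95% interval of -0.09 to 0.64.

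Citrate synthase (Cs) starts the cycle and is a common marker of mitochondrial content. Cs was at 10.40 and 10.18 in WT, 10.12, 10.33 and 10.32 in mdx, and 10.29, 10.21 and 10.36 in mdx sln+/-. The groups overlapped, with a difference of -0.03 ± 0.12 in mdx (adjusted p = 0.898). Idh3a, the catalytic subunit of NAD-dependent isocitrate dehydrogenase, was at 8.91 and 8.93 in WT, 8.47, 8.79 and 8.82 in mdx, and 8.72, 8.63 and 8.84 in mdx sln+/-. All 6 mutant libraries lay below WT, and neither difference passed (-0.23 ± 0.13, 0.261; -0.19 ± 0.13, 0.321). The value in mdx was -0.066 without mdx 1, and -0.097 over protein-coding transcripts only. Ogdh, the first subunit of the 2-oxoglutarate dehydrogenase complex, was at 11.10 and 10.98 in WT, 11.09, 11.04 and 11.07 in mdx, and 10.98, 11.06 and 11.06 in mdx sln+/-, a difference of 0.02 ± 0.09 (0.886).

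The remaining genes set in the citrate cycle class, Idh2, Idh3b, Idh3g, Dlst, Sucla2, Suclg1, Fh1, Mdh1 (cytosolic) and Mdh2, lay between -0.23 (Sucla2) and 0.09 (Idh2) in mdx. For 10 of the 12 the 95% interval of mdx against WT lay within 0.5 of 0 on either side, and for mdx sln+/- against WT this held for all 12. The lowest bound in mdx was -0.54 and the highest 0.30. An interval that holds 0 does not show that a gene was unchanged. Within the class, 2 minor transcripts labelled as targets of nonsense-mediated decay fell in both genotypes while their genes did not pass. Idh3a-204 went from 47.4 and 45.9 in WT to 29.4, 32.1 and 27.4 in mdx (-0.64 ± 0.11, 0.0167), and Idh2-202 from 113.9 and 124.5 to 82.6, 91.0 and 87.0 (-0.45 ± 0.09, 0.0294). Over all members, 11 of 176 transcripts tested passed in mdx (6.25%, beside 8.29% of all transcripts), 7 of them higher (4.23% of all) and 4 lower (4.07%). In mdx sln+/- 18 passed (10.2%, beside 10.1%), 6 of them higher (5.39% of all) and 12 lower (4.74%).

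**Figure D4:**
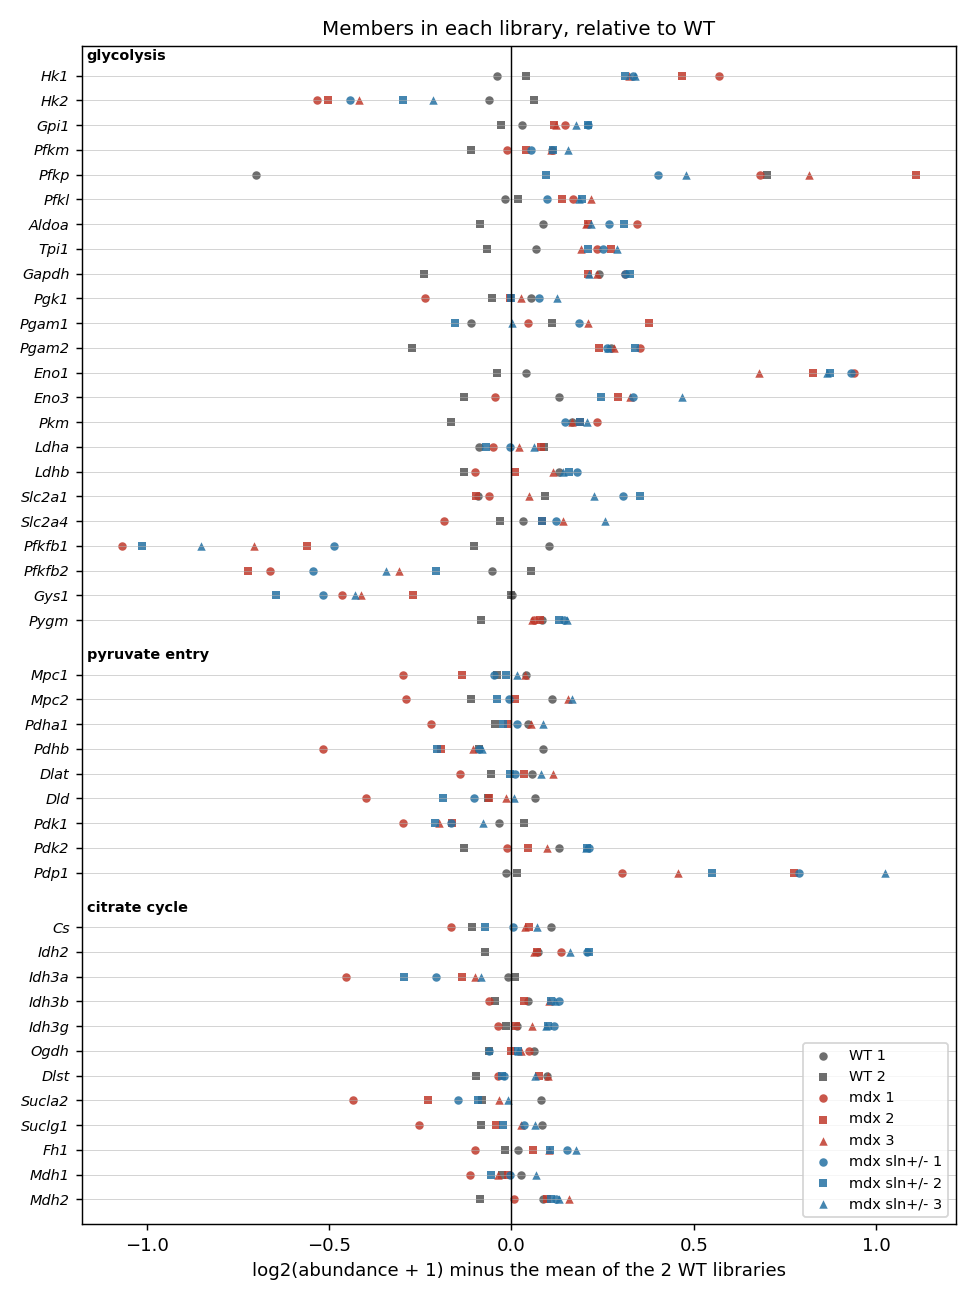
Each member's level in each of the 8 libraries, as log2(abundance + 1) minus the mean of the 2 WT libraries; colours are genotypes, and circle, square and triangle are replicates 1, 2 and 3. mdx 1 (red circle) lies at the left end of most rows of pyruvate entry and the citrate cycle, and WT 2 (grey square) of many rows of glycolysis.

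One library set the low end of the classes beyond glycolysis. mdx 1 was the lowest of the 8 libraries in 15 of the 21 genes of pyruvate entry and the citrate cycle (71.4%), beside 22.8% of all genes, and the lowest of the mdx libraries in 19 of 21 (90.5%, beside 44.2% of all genes). It also had the lowest summed abundance of the 8 libraries and the highest summed abundance of 10 macrophage markers (399.0, against 314.2 and 328.6 in the other mdx libraries) and of 7 fibroblast markers (863.1, against 725.6 and 705.6). Their part in these low values was not tested. Without mdx 1, the difference between mdx and WT turned to 0.07 for Cs and to 0.06 for Pdha1, neither called. Among WT, WT 2 was the lower library in 18 of these 21 genes (85.7%, beside 54.1% of all genes).

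Counts of genes whose groups do not overlap were 15 of 44 members in mdx against WT, beside 51.4% of all genes, with 8 higher (27.8% of all genes) and 7 lower (23.6%). In mdx sln+/- against WT they were 24 of 44, beside 59.8%, with 18 higher (36.4%) and 6 lower (23.5%). Between mdx sln+/- and mdx, 10 of 44 did not overlap, beside 24.8%, with 9 higher in mdx sln+/- (16.8% of all genes) and 1 lower (8%). All 9 pyruvate entry genes and 10 of the 12 citrate cycle genes had a fold change above 0 in that comparison, from 0.03 (Dlat) to 0.28 (Pdp1) and from -0.04 (Dlst) to 0.15 (Sucla2); over all genes, 8313 of 13783 were above 0.

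The 10 macrophage markers were all in the file, and 3 of them rose in mdx. Their summed abundance was 241.9 and 244.5 in WT, 314.2 to 399.0 in mdx and 321.8 to 383.1 in mdx sln+/-. Of 7 fibroblast markers 1 rose, with sums of 595.9 and 709.4 in WT and 697.4 to 863.1 in the 6 others, and of 7 endothelial markers 2 rose and 1 fell in mdx. For pericytes and vascular smooth muscle, 1 of the 7 listed genes rose in mdx. The summed abundance was 564.2 and 565.4 in WT and 608.1 to 809.0 in the others, without overlap. Acta2, Tagln and Cnn1 went the other way in both genotypes, none called. The median log2 fold change of the list was 0.03 in mdx and -0.47 in mdx sln+/-. Of 6 atrial markers 3 were in the file, and Nppa, the atrial natriuretic peptide gene, and Gja5 rose in mdx (1.11 ± 0.27, limma adjusted p = 0.0361; 0.45 ± 0.09, 0.0241). Stard10, the remaining marker, went the other way without passing (-0.83 ± 0.23, 0.0532). The atrial sum was 241.1 and 388.6 in WT and 494.4 to 704.3 in the others. None of 5 blood markers passed, and their sums overlapped (327.7 and 470.5 in WT, 284.0 to 904.3 in the others). None of 8 cardiac muscle markers passed; their sum was 46100 and 48470 in WT and 49020 to 53640 in the others. Hk1 and Eno1 are expressed in many cell types, and the part of these cells in their rise was not tested. In whole ventricle, more cells of a type and more RNA per cell cannot be told apart.

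The calls were close to the threshold apart from Eno1. Leaving out mdx 2 also took mdx sln+/- 2 out of the fold changes, and the reverse, through a term of the fit described below. In mdx against WT, Hk1 lost its call without WT 1 (adjusted p = 0.065), WT 2 (0.063) or mdx sln+/- 1 (0.0504), and Hk2 without WT 2 (0.0902) or mdx 1 (0.0589); Pfkfb1 lost it without WT 1, WT 2, mdx 1, mdx 3 or mdx sln+/- 3, and Gys1 without WT 1, WT 2, mdx 1, mdx 3 or mdx sln+/- 1. In mdx sln+/- against WT, Gys1 lost it without WT 2 or mdx sln+/- 1, Pdp1 without WT 1, WT 2, mdx sln+/- 1 or mdx sln+/- 3, Hk1 without any library but mdx 1 or mdx 3, and Pfkfb1 without any but mdx 1. Among libraries with no index in the name, in which WT 1, WT 2, mdx 3 and mdx sln+/- 3 remain, the log2 fold changes of mdx against WT were 0.32 for Hk1, -0.42 for Hk2, 0.68 for Eno1, -0.71 for Pfkfb1 and -0.41 for Gys1, each with its direction kept and none called. Libraries with an index include no WT, so no such value exists there. Without WT 2 and mdx sln+/- 3, Hk1 was at 0.49, Hk2 at -0.44, Eno1 at 0.78, Pfkfb1 at -0.87 and Gys1 at -0.40, likewise not called.

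Of 97 other genes of these pathways and their regulators, 91 were tested, and 13 passed in mdx (14.3%, beside 15.1% of all genes): 2 rose (8.15% of all genes) and 11 fell (6.94%). In mdx sln+/- 14 passed (15.4%, beside 15.9%), of which 3 rose (9.41%) and 11 fell (6.5%). The lowest adjusted p was that of Pdp2, the insulin-responsive pyruvate dehydrogenase phosphatase, at 5.77 and 5.66 in WT, 3.99, 3.79 and 4.33 in mdx, and 4.26, 4.66 and 4.34 in mdx sln+/-. It fell by 1.68 ± 0.19 in mdx (adjusted p = 0.00446) and by 1.30 ± 0.19 in mdx sln+/- (0.00791), so that the phosphatase genes Pdp1 and Pdp2 stood on opposite sides of WT in all 6 mutant libraries. Pdpr, the regulatory subunit of the phosphatase, fell by 0.31 ± 0.08 (0.0432). Pdk4, the kinase induced by fasting and fatty acids and chosen here after its values were seen, fell by 1.57 ± 0.41 in mdx (0.0438), with 10.32 and 10.78 in WT, 8.78, 8.46 and 9.67 in mdx, and 9.38, 10.003 and 9.10 in mdx sln+/-. That call was lost without WT 1 (0.0827), WT 2 (0.192), mdx 1 (0.14), mdx sln+/- 1 (0.0799) or mdx sln+/- 3 (0.0557).

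Got1, the cytosolic aspartate aminotransferase of the malate-aspartate shuttle, fell by 0.65 ± 0.09 in mdx (adjusted p = 0.00803) and by 0.76 ± 0.09 in mdx sln+/- (0.00581), from 9.95 and 9.99 in WT to between 9.14 and 9.38 in the others. Pygl, the liver glycogen phosphorylase, rose by 0.88 ± 0.13 in mdx (0.00898), and Bsg, the chaperone of lactate carriers, by 0.37 ± 0.08 (0.0295). Mlxip, a glucose-sensing transcription factor, fell by 0.30 ± 0.07 (0.027). Ugp2, which makes the UDP-glucose used by glycogen synthase, fell by 0.35 ± 0.09 (0.0362). Dhtkd1, a relative of Ogdh, and Ldhd, the D-lactate dehydrogenase, fell by 0.61 ± 0.14 (0.0317) and 0.40 ± 0.10 (0.0352). Pygl and Dhtkd1 were of low abundance beside the filter value of 1. Mean abundance of Pygl was 1.96 in WT and 4.45 in mdx, and that of Dhtkd1 1.90 and 0.89. Over all settings run, the difference between mdx and WT ranged from 0.44 to 1.00 for Pygl and from -0.78 to -0.23 for Dhtkd1. Mlxip, Bsg, Dhtkd1, Ldhd, Ugp2 and Pdpr lost their calls without WT 1, and each without further single libraries.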

How the data were processed

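Per the submitters' processing notes, reads were aligned with STAR 2.6.1 to mm10, and Partek and limma were used. What was deposited is log2(normalised abundance + 1) for each transcript, in 2 columns per library (r1 and r2, whose meaning is not given), correlated at 0.981 to 0.987. The columns were averaged, returned to linear scale, summed per gene and put back as log2(sum + 1). A contrast was absent from the values: mdx 2 with mdx sln+/- 2 had the same mean as the other 4 mutant libraries in all rows, to within 5.125e-05. The fit therefore held group and this contrast, with 4 residual degrees of freedom. Genes were tested with limma 3.58.1 (trend, empirical Bayes, R 4.3.3), adjusted over all genes tested; the fit was tested on simulated data. Near-identical copies were found with blastn 2.17.0 (identity of at least 90%, coverage of at least 80%). The members, lists and the rule for named genes (members past the threshold, 11 set enzymes, and up to 10 other pathway genes by adjusted p) were chosen with earlier results of these data known. One gene that this rule names is not reported here.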

Additional observations from a re-analysis of the deposited data

How the results depend on the processing

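With only 2 WT libraries, read depth unknown and 1 contrast removed before deposit, calls near the threshold depended on the settings, and their cause was not tested. The term for that contrast marks mdx 2 and mdx sln+/- 2. Where a fit held only 1 of these 2 libraries, the term absorbed it, and the differences rest on the other libraries. This was so for mdx and WT compared alone. It was also so without mdx 2 or without mdx sln+/- 2, which gave the same differences. Against the 5 members and 2080 genes called in mdx against WT, a fit by group only, which counts 1 degree of freedom too many, called 10 members, 3798 genes and 31 member transcripts (11 in the fit reported). A term for name style left 1 member, Eno1, and 559 genes; the groups compared alone left 2 and 545; libraries with no index left 0 and 122; leaving out WT 2 and mdx sln+/- 3 left 1 member, Pfkp, and 126; r1 columns gave 3 members, and a mean value of at least 10 gave 1229 genes, fewer being tested. In mdx sln+/- against WT (5 members, 2193 genes), these settings gave 10 and 3996 (group only), 1 and 711 (name style), 2 and 333 (no index), 0 and 39 (without WT 2 and mdx sln+/- 3), 3 members (r1), and 1401 genes (mean value). Leaving out each library in turn gave 2 to 5 members and 579 to 1819 genes in mdx against WT, 1 to 5 members and 316 to 2410 genes in mdx sln+/- against WT, and 2 to 10 member transcripts (chosen after seeing the data). No direction of Hk1, Hk2, Eno1, Pfkfb1, Gys1 or Pdp1 changed under any setting run, and the upper-quartile and median-ratio scalings, pseudocounts and the absence of a filter kept both counts of members within 1.5 times, though both scalings ended the call of Hk1 in mdx sln+/- (adjusted p = 0.0972 and 0.0847) and made one of Hk2 (0.0348 and 0.0373). Pfkfb1 lost its call in mdx with a pseudocount of 0.5 (limma adjusted p = 0.0507) and with no filter (0.0501). DESeq2 was not run, since the file holds no counts. Protein-coding transcripts alone (chosen after seeing the data) gave 4 and 6 members, and Pfkfb1 lost both of its calls (limma adjusted p = 0.0595 and 0.0573).

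Uncalled differences near 0 changed sign in mdx against WT. Without WT 2 and mdx sln+/- 3 they were -0.071 for Pfkm, -0.032 for Slc2a4, -0.088 for Pdk2 and -0.042 for Ogdh. With the groups compared alone they were -0.014 for Ldha and -0.022 for Slc2a4. The term for the removed contrast then absorbed mdx 2, so these values compare mdx 1 and mdx 3 with WT. In r2 columns they were -0.034 for Ldha and -0.0055 for Slc2a4. With median-ratio scaling they were -0.0024 for Ldha and -0.0074 for Slc2a4. Name style as a term gave 0.027 for Pdha1 and 0.0404 for Cs, libraries with no index 0.054 and 0.038, and r1 columns 0.0089 for Cs. Leave-one-out ranges were -0.064 to 0.16 for Pfkm, -0.072 to 0.11 for Ldha, -0.078 to 0.16 for Slc2a4, -0.14 to 0.057 for Pdha1, -0.089 to 0.17 for Pdk2, -0.14 to 0.082 for Cs, -0.038 to 0.087 for Ogdh; and, for isozyme differences against WT, -0.078 to 0.17 for Slc2a1 minus Slc2a4, -0.29 to 1.33 for Pfkp minus Pfkm, -0.037 to 0.22 for Pfkl minus Pfkm, -0.56 to 0.20 for Pgam1 minus Pgam2, -0.30 to 0.14 for Ldha minus Ldhb, 0.49 to 0.67 for Eno1 minus Eno3 (0.27 in r2 columns, adjusted p = 0.643 by the exact permutation test), and -0.48 to -0.15 for Pdk1 minus Pdk2.

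Replicate numbers were checked as pairs by correlating deviations from the group means. Same-numbered WT and mutant libraries were correlated at -0.142 to 0.142, so no pairing with WT was seen. Between mdx and mdx sln+/- the values were -0.19, -1 and -0.242 for replicates 1, 2 and 3. The removed contrast ties the deviations of these 2 genotypes and forces the -1, so the check cannot decide whether they were paired. With the replicate block 5 members were called in each comparison with WT; Pfkfb1 lost its call in both (adjusted p = 0.055 and 0.0548), Pfkfb2 passed in mdx and Hk2 in mdx sln+/- (0.0192), and Slc2a4 was at -0.044 in mdx.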
